A study of Mus musculus with 6 samples.

Results

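Tissue kallikreins are secreted trypsin-like serine proteases, and in the mouse a run of closely related genes on chromosome 7 encodes Klk1, the true tissue kallikrein, and the many Klk1b paralogues that arose from it. Klk1 releases the vasoactive peptide kallidin or bradykinin from kininogens. Most Klk1b enzymes have other or little known substrates, and Klk1b21, Klk1b24 and Klk1b27 are known as kallikreins of the interstitial Leydig cells of the adult testis. Klk1b22, also called epidermal growth factor binding protein type A, is best known from the salivary gland.

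The members described here were the genes Klk1, Klk1b21, Klk1b22, Klk1b24 and Klk1b27, found as the probes that carry their names on the array. Of the 5, 4 had a probe, 1 each, among 24 kallikrein genes with a probe and 27343 gene names in all. Klk1b22 had no probe of its own name, and its transcript was listed only for the Klk1b24 probe. No level of Klk1b22 by itself is therefore given.

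The groups were 3 male mice with a Prss37 knockout and 3 wild-type males, all on C57BL/6 and aged 6 to 8 weeks, and total RNA was taken from their testes. Prss37 is a testis gene of the trypsin family, and the knockout allele, its construction and any breeding controls are not described in the sources used here. One label field of the knockout animals names Prss55, and the groups follow the titles, which name Prss37. Each RNA was labelled with Cy3 and hybridised to 1 single-colour Agilent array. Each array was taken as 1 animal, since the design text counts mice.

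Arrays held 43379 spots other than controls, of which 69.2% to 71.4% were well above background, and 0 were saturated. The number of arrays limits the precision of every value. Slide 1 carried replicates 1 and 2 of each genotype and slide 2 carried replicate 3 of each, and the scans split the arrays the same way. Prss37 itself fell by 0.71 on the log2 scale in knockout testes (SE 0.067, limma adjusted p = 0.024), but remained far above background on 3 of 3 knockout arrays. Its processed signals were 69429, 70753 and 70250 intensity units in knockout and 116042, 105833 and 131284 in wild type. Whether its probe lies in the deleted sequence is not stated, so it does not settle the genotype labels. Round spermatid markers (10 of 10) and Leydig markers (12 of 14) passed the filter on dim probes, and both cell types belong to the labelled tissue.

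The paralogues differ at few bases, so the probe sequences bear on what each signal can hold. The Klk1 probe and the Klk1b27 and Klk1b24 probes are given with capitals at the bases that differ from the above-background kallikrein probe with the most matching bases in an ungapped alignment, which is the Klk1b4 probe for Klk1 and the other probe of the pair for Klk1b27 and Klk1b24. The Klk1b11 probe is given with capitals at the bases that differ from the Klk1b27 probe, because it is the probe most like that of Klk1b27 and was not above background. The Klk1b21 probe has no similar partner among the kallikrein probes and is in lower case throughout. It starts at base 202 of its transcript, against 717 for the Klk1b24 probe and 765 for the Klk1b27 probe. Probes were compared with probes only, so its likeness to other transcripts is not shown by this.
Klk1: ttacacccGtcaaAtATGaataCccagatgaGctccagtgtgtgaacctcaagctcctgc
Klk1b27: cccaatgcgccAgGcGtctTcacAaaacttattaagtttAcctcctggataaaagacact
Klk1b24: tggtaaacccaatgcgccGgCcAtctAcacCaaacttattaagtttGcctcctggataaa
Klk1b11: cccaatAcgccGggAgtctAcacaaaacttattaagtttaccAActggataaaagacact
Klk1b21: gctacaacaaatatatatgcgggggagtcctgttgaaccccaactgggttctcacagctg

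Each probe is 60 bases long, and the coordinates of the scanner files are on mm9. The Klk1 probe (transcript NM_010639) aligned to chr7:51484170-51484325, a stretch of 156 bases, so that the aligned probe is broken on the genome. The Klk1b21 probe (NM_010642) lay at chr7:51359794-51359853 and the Klk1b24 probe (NM_010643) at chr7:51447692-51447751. The Klk1b27 probe (NM_020268) lay at chr7:51311959-51312018. Strand and exon are not given with these coordinates.

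The annotation in the scanner files ties only some of these probes to a single gene. Only the Klk1 and Klk1b27 probes listed no kallikrein gene other than their own. The Klk1b21 probe also listed Klk1b11 and Klk1b24, and the Klk1b24 probe also listed Klk1b22, so these probes may report more than 1 gene. Over the 53 bases that the Klk1b24 and Klk1b27 probes share in register, 6 differed, and the longest run without a difference was 15 bases. In another register the Klk1b24 probe shared a run of 18 bases with the probe of the pseudogene Klk1b7-ps, which was above background on 6 arrays. The Klk1 probe differed from the Klk1b4 probe at 7 of 55 bases, with a shared run of 28 bases, and its last 24 bases are also in the probe of an unnamed transcript, NP063253. The Klk1b27 and Klk1b11 probes differed at 6 of 60 bases with a run of 22, yet the Klk1b11 probe was above background on 0 arrays, with signals of 10.8 to 28.4 units. The Klk1b21 probe shared no run over 9 bases with any other kallikrein probe. Cross-hybridisation between transcripts and probes was not tested.

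None of the 4 measured members passed the test between genotypes, where 2.46% of the 18976 genes tested did. A gene passed, or was called, at a limma p under 0.05 after Benjamini-Hochberg adjustment over all genes tested. Klk1 had nearly the same mean in both genotypes. Klk1b21, Klk1b24 and Klk1b27 each had lower means in knockout testes, by 1.29-fold to 1.30-fold on normalised levels, but their genotype groups overlapped, and 31.6% of all genes had groups that did not overlap. The median log2 difference of the 4 members, knockout minus wild type, was -0.37, with 3 below 0, and over all genes tested it was -0.0024.

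Klk1, the kinin-releasing enzyme, gave processed signals of 2877, 3285 and 3021 intensity units in knockout replicates 1, 2 and 3, and of 2958, 2880 and 3455 in wild-type replicates 1, 2 and 3. The highest signal was in wild-type replicate 3 and the lowest in knockout replicate 1, and the groups overlapped. On the normalised log2 level, from which the 75th percentile of each array is subtracted, knockout replicate 2 was highest, at 1.08 against 1.02 in wild-type replicate 3. Knockout testes had a mean of 3061 ± 207 (SD, n = 3), and the wild-type mean was 3098 ± 312 (SD, n = 3). The normalised levels of Klk1 differed by 0.018 (SE 0.087, 95% interval -0.19 to 0.23, limma adjusted p = 0.92). Its sign was not stable. The difference was 0.072 within slide 1 and -0.089 within slide 2, and it ran from -0.056 without knockout replicate 2 to 0.089 without knockout replicate 1.

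Klk1b21, a Leydig cell kallikrein, had signals of 2631, 3068 and 2536 units in the knockout replicates and of 4871, 3716 and 2679 in the wild-type replicates. Wild-type replicates 1 and 2 stood above all knockout arrays, and the wild-type replicate 3 signal lay among them. On the normalised log2 level wild-type replicate 3 was the lowest of the 6 arrays, at 0.65. The knockout mean was 2745 ± 284 (SD, n = 3), against 3755 ± 1096 (SD, n = 3) for wild type. The log2 difference was -0.38 (SE 0.24, 95% interval -0.97 to 0.21, limma adjusted p = 0.39), which did not pass.

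The Klk1b24 probe, which also lists Klk1b22, read 20041, 22580 and 19248 units in knockout replicates 1 to 3 and 34284, 27376 and 21299 in wild-type replicates 1 to 3. Here too wild-type replicates 1 and 2 were the highest arrays, and wild-type replicate 3 was below knockout replicate 2. Means of 20623 ± 1741 (SD, n = 3) and 27653 ± 6497 (SD, n = 3) units were found in knockout and wild type. The normalised log2 levels differed by -0.37 (SE 0.20, 95% interval -0.85 to 0.12, limma adjusted p = 0.32).

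Klk1b27 is the third Leydig cell kallikrein among the members, and its probe lists no other gene. Its signals were 7059, 8445 and 7333 units in knockout and 13578, 9810 and 7601 in wild-type replicates 1, 2 and 3. Again the wild-type arrays of slide 1 were highest and wild-type replicate 3 fell within the knockout range. The means were 7612 ± 734 (SD, n = 3) and 10330 ± 3022 (SD, n = 3), and the normalised log2 difference was -0.37 (SE 0.23, 95% interval -0.94 to 0.20, limma adjusted p = 0.39).

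**Figure D1:**
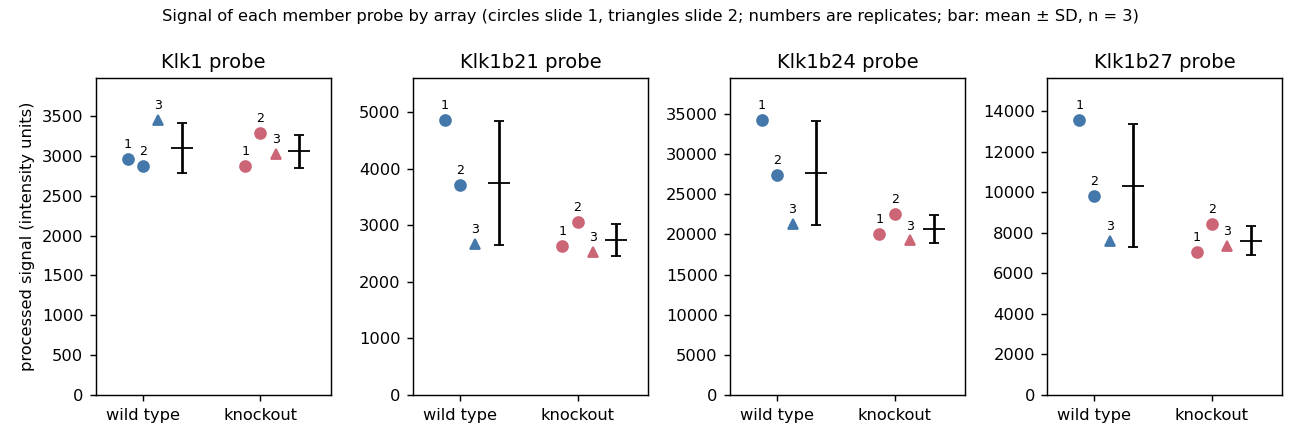
Processed signal (intensity units, axes from 0) of the 4 member probes on each of the 6 arrays, with circles for slide 1, triangles for slide 2, replicate numbers above the points, and bars for the mean ± SD of 3 mice. Wild-type replicates 1 and 2 are the highest arrays for Klk1b21, Klk1b24 and Klk1b27, the wild-type replicate 3 signal lies within the knockout range for these 3 probes, and Klk1 has its highest signal in wild-type replicate 3.

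The lower knockout levels of the 3 Leydig cell kallikreins were seen on slide 1. Within slide 1, Klk1b21 differed by -0.59, Klk1b24 by -0.53 and Klk1b27 by -0.58 between the means of 2 knockout and 2 wild-type arrays. Within slide 2, where each genotype has 1 array, the same differences were 0.025, -0.042 and 0.053. On slide 1 both knockout arrays were below both wild-type arrays for all 3 probes, as they were for 27.8% of all genes tested. With the slide as a block, the limma adjusted p was 0.27 for Klk1b21, 0.21 for Klk1b24 and 0.31 for Klk1b27. A fit on slide 1 alone, chosen after the data had been seen, gave adjusted p of 0.22, 0.21 and 0.26. An effect of the slide and a difference between single animals cannot be told apart, since slide 2 has 1 animal per genotype.

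Leaving out wild-type replicate 1 or wild-type replicate 3 moved these values by more than 1.5 times, while leaving out wild-type replicate 2 did not. Without wild-type replicate 3 the log2 differences were -0.64 for Klk1b21, -0.57 for Klk1b24 and -0.60 for Klk1b27, with limma adjusted p of 0.091, 0.083 and 0.12. Without wild-type replicate 1 they were -0.16, -0.19 and -0.14, with adjusted p of 0.71, 0.60 and 0.71. Without wild-type replicate 2 they were -0.35, -0.34 and -0.37. In no such fit did a member pass the test, and the sign of these 3 differences was the same in each.

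**Figure D2:**
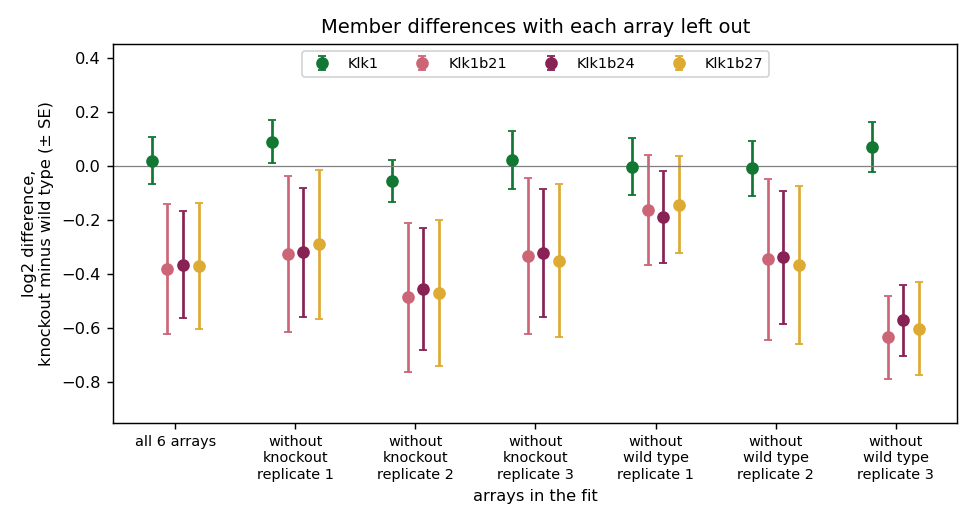
Fitted log2 difference, knockout minus wild type, of the 4 members with all 6 arrays and with each array left out in turn, with bars for ± 1 SE. The Klk1b21, Klk1b24 and Klk1b27 values are nearest to 0 without wild-type replicate 1 (-0.16, -0.19 and -0.14) and farthest from it without wild-type replicate 3 (-0.64, -0.57 and -0.60), while Klk1 stays between -0.056 and 0.089.

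The spread among wild-type mice set these genes apart from most of the array. The SD of the wild-type log2 levels was 0.47 for Klk1b21, 0.39 for Klk1b24 and 0.46 for Klk1b27, and 98.1%, 96.7% and 98.0% of all genes tested had a smaller one. For Klk1 it was 0.088, with 50.8% of genes below it. Among knockout mice the SD was 0.18, 0.16 and 0.18 for the 3 Leydig cell kallikreins and 0.15 for Klk1, above that of 89.0%, 86.2%, 89.0% and 85.0% of genes. From the lowest to the highest array, Klk1b21 varied 1.92-fold, Klk1b24 1.76-fold, Klk1b27 1.98-fold and Klk1 1.22-fold. These percentiles are a description, and the difference in spread between genotypes was not tested.

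Klk1b21, Klk1b24 and Klk1b27 went up and down together over the 6 animals. Their log2 levels correlated at r = 0.997 for Klk1b21 with Klk1b24 (exact permutation p = 0.0069, adjusted 0.023 over 10 relations, both two-sided). For Klk1b21 with Klk1b27 r was 0.99 (exact permutation p = 0.0042, adjusted 0.021), and for Klk1b24 with Klk1b27 r was 0.99 with the same exact permutation p and adjusted value. Spearman's rho was 0.83 for the Klk1b21 and Klk1b24 pair (exact permutation p = 0.058, adjusted 0.19), and 0.94 for both other pairs (exact permutation p = 0.017, adjusted 0.083). Thus the rank correlations did not pass after adjustment.

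The correlations rest on a few arrays. Without wild-type replicates 1 and 2, the 2 arrays farthest from the median, r was 0.98 for Klk1b21 with Klk1b24, 0.96 for Klk1b21 with Klk1b27, and 0.95 for Klk1b24 with Klk1b27. Those values rest in turn on knockout replicate 2, the highest of the 4 arrays left. The log2 levels of Klk1b21 were 0.98 there and 0.66, 0.68 and 0.65 in knockout replicates 1 and 3 and wild-type replicate 3, and those of Klk1b24 were 3.86 against 3.59, 3.60 and 3.64. The gap between the log2 levels of a pair varied by only 0.18, 0.13 and 0.17 over the 6 arrays, against ranges of 0.94, 0.81 and 0.98 of the levels themselves. No slide had the 6 arrays that a correlation within it would need. The Klk1b21 and Klk1b24 probes both list Klk1b24, while the Klk1b27 probe shares no listed gene with either. The part of shared transcripts in the correlations was not tested.

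The Klk1 probe did not move with the other members. Its r was -0.18 with Klk1b21, -0.17 with Klk1b24 and -0.12 with Klk1b27 (exact permutation p = 0.74, 0.76 and 0.81, each 0.81 after adjustment). Spearman's rho was -0.14, 0.14 and 0.086 for the same pairs (exact permutation p = 0.80, 0.80 and 0.92). Without the 2 arrays farthest from the median of Klk1, knockout replicate 2 and wild-type replicate 3, r was 0.099, 0.094 and 0.20. The gap between Klk1 and each of the others varied by 0.91 to 1.09 on the log2 scale over the arrays. These values are for the probe named Klk1, and a Klk1b3 probe that also lists Klk1 had r = 0.98 with the Klk1b24 probe.

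**Figure D3:**
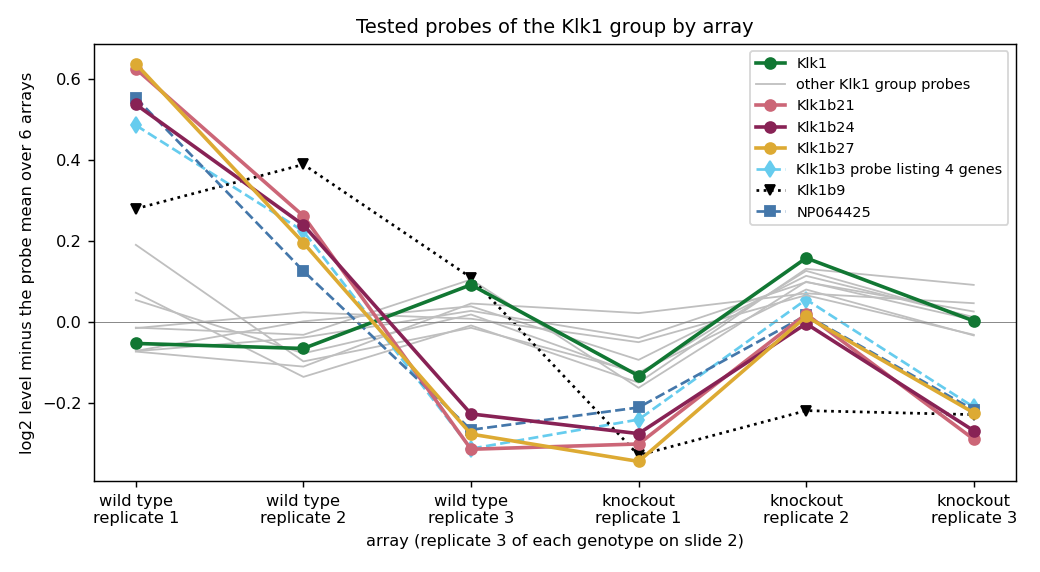
Log2 level of each tested probe of the Klk1 group on the 6 arrays, minus that probe's mean over the arrays; lines join the arrays of one probe and imply no order. The Klk1b21, Klk1b24 and Klk1b27 lines run together, with their highest points in wild-type replicates 1 and 2, along with a Klk1b3 probe that lists 4 genes and the unnamed transcript NP064425, while Klk1 and the grey lines stay within a narrower band.

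Other probes of the cluster separated into some that ran with the Klk1b24 probe and many that did not, and their correlations are given as a description over the 6 arrays. Klk1b3 encodes the gamma subunit of the nerve growth factor complex and had a pair of probes. The one that lists Klk1, Klk1b16, Klk1b3 and Klk1b9 had r = 0.98 with the Klk1b24 probe, while the one that lists Klk1b3 alone had r = 0.026. Signals of the first were 3378, 3872 and 3298 units in knockout and 5443, 4457 and 3301 in wild type, so that it showed the pattern of the Leydig cell kallikreins, although it lists none of them. Its log2 difference was -0.26 (limma adjusted p = 0.50), and that of the second Klk1b3 probe was -0.039 (0.81).

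The transcript NP064425, with no gene name in RefSeq, also followed the Klk1b24 probe, at r = 0.98. Its probe lies at chr7:51330403-51330462 on mm9, between those of Klk1b27 and Klk1b21. It read 4129, 4512 and 3929 units in knockout and 6830, 4984 and 4083 in wild type, with a log2 difference of -0.28 (limma adjusted p = 0.47). Further members of the cluster were less like it or unlike it, with r of 0.75 for Klk1b9, 0.65 and 0.26 for the probes of Klk1b26, 0.12 for Klk1b16, -0.20 for Klk1b8, -0.49 for Klk1b4 and -0.78 for the pseudogene Klk1b7-ps. The parallel pattern thus included 5 probes at r of 0.98 or above, counting the Klk1b24 probe itself, and the Klk1b9 probe came next.

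Beyond the kallikreins, the genes most like each member were named by the highest r over the 6 arrays. For Klk1 these were Zfp114 (0.99), Fam20a (0.99) and Arhgap8 (0.97). For Klk1b21 they were Pwwp3a (0.995), Rpn1 (0.99) and Rbsn (0.99), for Klk1b24 Zfp429 (0.99), Rpn1 (0.99) and Otulin (0.99), and for Klk1b27 Qrich1 (0.996), Rpn1 (0.99) and Samd7 (0.99). Such matches are many with 6 arrays: 291, 345 and 271 of 18973 genes had r over 0.9 with Klk1b21, Klk1b24 and Klk1b27, which is 1.53%, 1.82% and 1.43%. With Klk1 there were 59, or 0.311%. The named genes varied by very different amounts over the arrays, from 0.077 for Rpn1 to 0.59 for Samd7 on the log2 scale.

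Of the other 20 kallikrein genes with a probe, 11 were tested and 1 was called, in the lower direction, where 1.25% of all genes tested were called lower. The median log2 difference of these 11 was 0.021, with 6 above and 5 below 0. The 9 kallikrein genes that were not tested, among them Klk1b1, Klk1b11, Klk5, Klk6, Klk8, Klk11, Klk12 and Klk14, did not reach the detection rule in either genotype. Klk7 was above background on some arrays only.

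The called gene was Klk1b9, epidermal growth factor binding protein type C. Its signals were 12150, 12239 and 12451 units in knockout and 18039, 19112 and 16931 in wild type, so that every knockout array lay below every wild-type array. The mean signal of Klk1b9 was 18027 ± 1091 (SD, n = 3) in wild type and 12280 ± 154 (SD, n = 3) in knockout. On normalised levels it fell 1.43-fold, a log2 difference of -0.52 (SE 0.080, limma adjusted p = 0.044). It was lower on both slides, by -0.61 on slide 1 and -0.34 on slide 2. The call was narrow: the adjusted p was 0.062 with the slide as a block, 0.12 on slide 1 alone, and 0.13 to 0.15 without wild-type replicate 1 or any 1 of the 3 knockout replicates. The wild-type replicate 3 signal of Klk1b9 was above that of every knockout array, which was not so for the Leydig cell kallikreins.

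Klk4, a kallikrein of developing enamel that lies outside the Klk1 group, had the largest positive difference of the family. It read 1158, 1175 and 1224 units in knockout and 768, 693 and 1038 in wild type, and the groups did not overlap. The log2 difference was 0.56 (SE 0.13, limma adjusted p = 0.073), which did not pass. With 1 array left out the limma adjusted p of Klk4 ran from 0.032, without wild-type replicate 3, to 0.21, without knockout replicate 2.

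**Figure D4:**
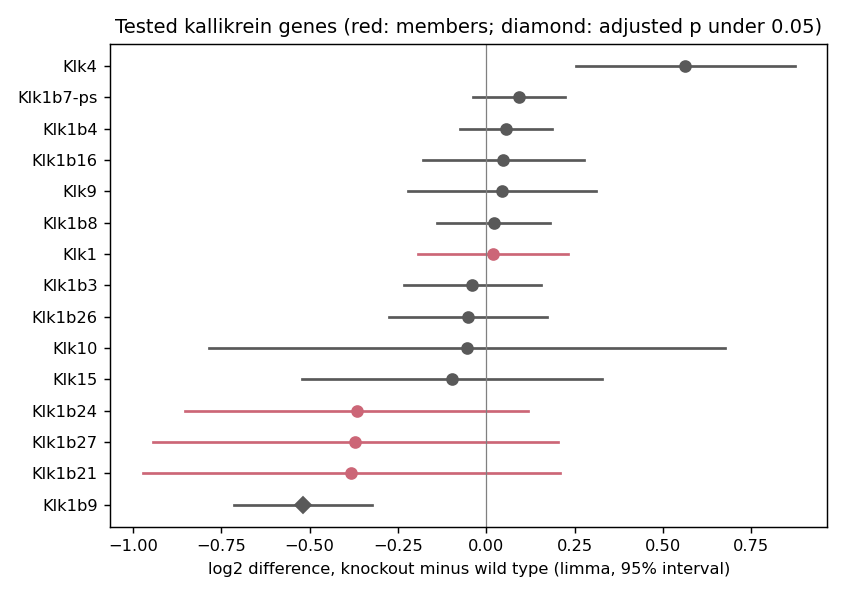
Fitted log2 difference, knockout minus wild type, with 95% interval, for the 15 tested kallikrein genes, the 4 members in red and the gene with an adjusted p under 0.05 as a diamond. Klk1b9 (-0.52) is the lowest and the called gene, Klk1b21, Klk1b24 and Klk1b27 lie near -0.37 with intervals that include 0, Klk1 lies at 0.018, and Klk4 (0.56) is the highest.

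The promoters of the members, among them the 3 genes that moved together, were compared around shared letters, because RefSeq start sites in this cluster are not placed alike. Whether promoter likeness has a part in the parallel levels was not tested. On GRCm38.p6, windows of 300 bases, from 250 before to 50 after the annotated start, were searched for TATAAA on the gene's strand. It was in 0 of the 5 member promoters and in 8.32% of 32851 promoters. The letters TTTAAA were in the windows of Klk1b21, Klk1b22, Klk1b24 and Klk1b27 and in 13.2% of all promoters. They began at 4, -40, -31 and -17 relative to the annotated start of Klk1b21, Klk1b22, Klk1b24 and Klk1b27. The members are close paralogues, so their windows do not count as separate promoters beside these shares.

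The stretches of 100 bases around these letters are shown to let the likeness of the 4 genes be read directly. Each is on the plus strand and runs from 80 bases before the TTTAAA, which is in capitals. They lie at chr7:44102216-44102315 for Klk1b21, chr7:44188125-44188224 for Klk1b24, chr7:44052193-44052292 for Klk1b27 and chr7:44112553-44112652 for Klk1b22.
Klk1b21: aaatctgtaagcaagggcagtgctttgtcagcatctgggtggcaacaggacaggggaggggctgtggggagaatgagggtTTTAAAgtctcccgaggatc
Klk1b24: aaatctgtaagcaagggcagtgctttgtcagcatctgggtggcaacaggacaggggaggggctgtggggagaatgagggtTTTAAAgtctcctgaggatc
Klk1b27: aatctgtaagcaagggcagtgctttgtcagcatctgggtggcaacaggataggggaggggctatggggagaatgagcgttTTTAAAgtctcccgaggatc
Klk1b22: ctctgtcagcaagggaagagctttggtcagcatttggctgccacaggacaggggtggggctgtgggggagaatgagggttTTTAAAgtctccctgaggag

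Over these windows Klk1b21 and Klk1b24 were 99.0% identical, Klk1b21 and Klk1b27 95.05%, and Klk1b24 and Klk1b27 94.1%. Klk1b22 was 82.5% to 83.7% identical to these 3, and 93.0% identical to Klk1b9. Among the 12 kallikrein genes with such a window, the pairs formed by Klk1b21, Klk1b24 and Klk1b27 had the highest identities, and all other pairs had 66.7% to 93.1%. The window of Klk1b22, which has no probe of its own, was nearer to that of Klk1b9, another kallikrein of the cluster measured here. The Klk1 window ended with gagaatgagggt, the run that stands directly before TTTAAA in Klk1b21 and Klk1b24, and holds no TTTAAA. The bases after the end of that window were not searched, so whether TTTAAA follows in Klk1 is not known from it.

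Short letters of steroid receptor sites were also searched on both strands. AGAACA, part of the androgen response element, was found in the window of Klk1b24 and not in those of the other 4 members, and is in 18.97% of all promoters. The whole palindromic element, which contains those letters, was in 0 of the 5 and is in 0.0091% of all promoters. With so rare an exact match, its absence from 5 windows says little. AGGTCA, the core of orphan and nuclear receptor sites, was in all 5 member windows and in 16.3% of all promoters. A match of letters is a description only, and the windows of close paralogues do not count as separate promoters.

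The kinin system, in which Klk1 acts, was measured in part. Kininogens are cut by Klk1 or by plasma kallikrein, kinins act on the receptors Bdkrb1 and Bdkrb2, and peptidases such as Ace and Mme degrade them. Of 16 genes of this system 13 were tested and 0 were called, where 2.46% of all genes tested were. An unadjusted limma p under 0.05 was found for 5 of 13, and for 23.9% of all genes tested. Of the 13, 11 had a difference below 0, as had 9623 of the 18976 genes tested, and the median of the 13 was -0.088. The kininogen genes Kng1 and Kng2 were not among the genes tested, so the precursor that Klk1 cuts has no value here.

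The smallest p-values of the kinin list belonged to F11, a coagulation protease that circulates with kininogen, with a log2 difference of -0.24 (limma adjusted p = 0.056), to Klkb1, plasma kallikrein, with -0.28 (0.057), and to the aminopeptidase gene Anpep, with -0.20 (0.13). The F11 and Klkb1 probes lie near each other on mm9, at chr8:46326753-46326812 and chr8:46357683-46357742. Klkb1 read 672, 657 and 660 units in knockout and 806, 757 and 909 in wild type, without overlap. The receptor genes Bdkrb1 and Bdkrb2 had differences of -0.075 (limma adjusted p = 0.65) and -0.088 (0.88), and Ace, which has a testis form in spermatids, 0.0075 (0.95).

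Of 8 genes for proteins that tissue kallikreins cut, 6 were tested and 0 were called, where 2.46% of all genes tested were. Their median log2 difference was -0.049. Col1a1, a collagen, had the smallest p, with a difference of -1.17 (limma adjusted p = 0.15). Its signals were 2851, 975 and 1052 units in knockout and 3195, 2899 and 3883 in wild type, so that knockout replicate 1 lay near the wild-type arrays. Col4a1 and the growth factor gene Egf had differences of -0.096 (limma adjusted p = 0.48) and -0.076 (0.49).

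Among 18 genes for inhibitors of kallikreins and related proteases, 13 were tested, 1 was called higher and 0 lower, where 1.21% of all genes were called higher. Their median was 0.081, with 9 above 0. The called gene was Spint1, a Kunitz-type inhibitor of trypsin-like proteases on cell surfaces. It read 700, 669 and 685 units in knockout and 593, 588 and 594 in wild type, a log2 difference of 0.24 (SE 0.042, limma adjusted p = 0.0499). This call was lost in 16 of 20 alternatives. Its adjusted p was 0.074 when slide was a block, and 0.052 to 0.18 with 1 array left out. Serpina5, the protein C inhibitor and an inhibitor of tissue kallikrein, had a difference of 0.040 (limma adjusted p = 0.78).

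In whole testis, fewer cells of a type and less RNA per cell cannot be told apart, so the level of Leydig cell genes is given beside the members. Of 14 Leydig markers 12 were tested and 0 were called, where 2.46% of all genes tested were. Their median log2 difference was -0.037, with 5 above and 7 below 0. The mean of the list, as a deviation from each gene's mean over the arrays, ran from -0.023 to 0.026 in knockout and from -0.16 to 0.097 in wild-type arrays. Wild-type replicate 2 was lowest in this list, although it was among the highest arrays for Klk1b21, Klk1b24 and Klk1b27. Cyp17a1, an enzyme of androgen synthesis, differed by 0.017 (limma adjusted p = 0.93), and Star, which brings cholesterol into mitochondria, by -0.23 (0.62). The largest differences of the list were positive, 0.34 for Hsd17b3 (limma adjusted p = 0.28) and 0.31 for Hsd3b6 (0.44). Cyp11a1 had the smallest p, with -0.25 (0.21).

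Over the 6 arrays the Leydig list mean correlated with Klk1b21 at r = -0.23, with Klk1b24 at -0.22, with Klk1b27 at -0.17 and with Klk1 at 0.27 (exact permutation, adjusted p = 0.81 in each case). Spearman's rho was -0.37, -0.029, -0.26 and 0.20 (exact permutation p = 0.50, 1.0, 0.66 and 0.71). None of these 4 relations passed. Without the 2 arrays farthest from the member's median, r was -0.37, -0.17, -0.40 and -0.15. The sign for Klk1 also turned, to r = -0.12, with another background correction.

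Lists of other cells also had 0 called genes each, where 2.46% of all genes tested were called. With so few genes per list, the absence of calls says little. Medians were 0.019 over 12 Sertoli cell genes, -0.017 over 6 peritubular and -0.021 over 6 endothelial genes, 0.070 over 10 round spermatid genes and 0.11 over 5 epididymal genes. Over 10 macrophage genes the median was 0.20 with 9 above 0, and over the 3 tested genes of 7 for salivary and other kallikrein-rich glands it was 0.18. Of the 10 macrophage genes, 6 had genotype groups that did not overlap, where 31.6% of all genes did. An unadjusted limma p under 0.05 was found for 6 of the 10, and for 23.9% of all genes tested. The part of these lists in the kallikrein values was not tested.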

How the data were processed

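Spot intensity values came as deposited scanner files, 1 for each array of design 014868. Agilent Feature Extraction, in version 10.7.3.1 per the file headers and 10.7 per the submitters' processing notes, had already removed background from the processed signal. A deposited table of log2 values had a median of 7.72 on each array and r above 0.999 with the log2 processed signal. Its scale is known from this, while the submitters' normalization of it is not given in the sources used here. Flags, positions and names were used as deposited.

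Controls and spots flagged as outliers (86 to 159 an array) were dropped. Spots of a probe were averaged after the 75th percentile of the array was subtracted on the log2 scale. Testing required a probe to be well above background on all unflagged arrays of 1 genotype or both, with 2 or more values in each, which held for 28306 of 41174 probes. Each gene was represented by its brightest probe, giving 18976 genes, some without a symbol. Names came from accessions in a GRCm38.p6 RefSeq table (27668 probes), symbols (5589), synonyms (471) or the files (7446).

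The genotypes were compared with limma 3.58.1 in R 4.3.3, by lmFit and eBayes, and p-values were adjusted by Benjamini-Hochberg. Correlations had two-sided exact permutation tests in SciPy 1.17.1, whose smallest possible p over 6 arrays is 0.0028. They pooled the genotypes and the slides. The members and all gene lists were chosen with earlier results of these data known. The rule named the 5 members, the called genes of each list or, failing any, its 3 of smallest p, and the 3 genes most correlated with each member. Klk4, Klk1b3, NP064425, Klk1b26, Klk1b16, Klk1b8, Klk1b4, Klk1b7-ps, Bdkrb1, Bdkrb2, Ace, Serpina5, Cyp17a1, Star, Hsd17b3, Hsd3b6 and Cyp11a1 fall outside it and were named with their values known. Probes were compared with each other without gaps. Alternatives covered normalization, background, filters, probe rules, moderation, blocks and left-out arrays. The fit was checked on simulated data.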

Additional observations from a re-analysis of the deposited data

How the results depend on the processing

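The count of members that passed stayed at 0 in all 21 alternatives, including an adjusted p under 0.1. Klk1b21, Klk1b24 and Klk1b27 kept their direction in all 20 alternatives run for each. On slide 1 alone they were -0.59, -0.53 and -0.58. With the other settings that used all 6 arrays they ran from -0.49 to -0.38, from -0.46 to -0.35 and from -0.47 to -0.37, and with 1 array left out from -0.64 to -0.16, from -0.57 to -0.19 and from -0.60 to -0.14. The Klk1 difference changed sign with normexp (-0.032), and with 1 array left out it ran from -0.056 to 0.089. The correlation of Klk1 with the Leydig list mean turned to -0.12 with normexp. The cause of either was not tested.

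Deviations of same-numbered mice from their group means correlated at -0.028, -0.027 and 0.16 for replicates 1, 2 and 3. These values do not settle whether replicate numbers pair the mice, and the replicate 3 mice also share slide 2. With the replicate block 0 members passed, with adjusted p of 0.35 for Klk1b21, 0.30 for Klk1b24 and 0.40 for Klk1b27, and over all genes 0 were higher and 2 lower.

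Klk1b9 lost its call in 9 of 20 alternatives, with adjusted p up to 0.15. Those not named with its values were testing each probe (0.051), no filter on dim probes (0.13) and the replicate block (0.13). Klk4 also passed with a variance trend (0.034) and with array weights (0.035), but did not pass in 17 of 20 alternatives, with adjusted p up to 0.21. Spint1 lost its call in 16 of 20 alternatives, and Klkb1 passed in 3 of 20 alternatives, with an adjusted p of 0.031 at the lowest and 0.20 at the highest. Counts over all genes moved by over 1.5 times from 230 higher and 237 lower: to 2 and 6 without a filter, 125 and 150 with the mean of probes, 132 and 161 with each probe, 691 and 579 with a variance trend, and 644 and 529 with array weights. They were 6 and 21 for slide 1 alone, and blocking on slide gave 30 and 49. With 1 array left out they ran from 0 and 2 (without knockout replicate 2) to 442 and 337 (without wild-type replicate 2).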
